A study of Homo sapiens with 6 samples.

Results

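The genes described here encode 10 subunits of the integrins, 8 alpha chains (ITGA1, ITGA2, ITGA3, ITGA4, ITGA5, ITGA6, ITGA11 and ITGAV) and 2 beta chains (ITGB1 and ITGB3). They were chosen by name, with earlier results of these data known. The Ensembl identifiers of all 10 were matched among the 57659 identifiers of the count files. RNA was sequenced from IMR90 cells, a line of primary human fetal lung fibroblasts grown in medium with serum. In the tested libraries the cells expressed a short hairpin RNA against macroH2A1 (macroH2A1 knockdown, 3 libraries), and in the control libraries the hairpin was directed against the reporter enzyme luciferase, which has no human counterpart (luciferase control, 3 libraries). Every library therefore comes from hairpin-expressing cells of this line, and no group without a hairpin was analysed here. MacroH2A1 is a variant of histone H2A that carries a large globular domain, and the design asks which genes change when it is depleted. The series calls the libraries biological replicates, and whether they came from separate cultures is not stated, so the p-values measure the spread between these libraries.

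Integrins are receptors of the cell surface that bind extracellular matrix on the outside and the actin cytoskeleton, through adaptor proteins, on the inside. Each receptor is a pair of 1 alpha and 1 beta chain, and the alpha chain largely sets the ligand. ITGA1, ITGA2 and ITGA11 pair with ITGB1 and bind collagens, ITGA3 and ITGA6 bind laminins of basement membranes, ITGA5 with ITGB1 is the main fibronectin receptor, and ITGAV, which pairs with several beta chains, and ITGB3 form receptors for vitronectin and other ligands with an RGD (arginine, glycine, aspartate) motif. ITGA4 with ITGB1 binds VCAM1 and fibronectin.

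The libraries held 3741087 to 6421605 reads assigned to genes, so that 3 reads correspond to 0.467 to 0.802 CPM (counts scaled to the sequenced total of a library), and all 6 carry the same sequencing lane in the names of the deposited files. The hairpin's target fell (edgeR adjusted p = 0.000917). MACROH2A1 had 39, 43.7 and 39.9 CPM in the macroH2A1 knockdown, against 92.1, 88 and 84.8 CPM in the luciferase control, or 46.3% of the control level. All 11 fibroblast markers were detected, with a summed level of 12000 to 12743 CPM in the knockdown and 7505 to 8563 CPM in the control. Of the 10 tested, 5 rose (COL1A2, COL3A1, PDGFRA, DCN and LUM) and 5 did not pass. Of the latter, VIM, THY1 and FAP had log2 fold changes of 0.00, 0.08 and -0.14. COL1A1 and PDGFRB had 0.39 and 0.41 (edgeR adjusted p = 0.0756 and 0.0553), with every knockdown library above every control library. In bulk RNA, a change in the number of cells of a type and a change in RNA per cell cannot be told apart. Markers of other cell types summed to at most 0.652 CPM (6 epithelial), 1.07 CPM (5 endothelial) and 0.396 CPM (6 blood cell) in the knockdown, against at most 1.11, 1.74 and 0.529 CPM in the control, and PECAM1, CD3E and GP9 had no read in any library. The 5 muscle markers summed to 2.39 to 8.04 CPM in the knockdown and 2.37 to 8.69 CPM in the control, with MYOD1 and MYOG at 0.

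The integrin genes did not move in 1 direction. In the macroH2A1 knockdown the laminin-binding chain ITGA6 fell to 47.2% of its control level and the collagen-binding chain ITGA2 to 81.3%, while the beta chain ITGB3 rose 1.62-fold. The other 7 genes did not pass the test, among them the abundant ITGB1, ITGAV, ITGA5 and ITGA1. All 10 genes passed the filter on low counts. Of these 10 genes, 1 was higher and 2 were lower at an edgeR adjusted p under 0.05. Of all 13445 genes tested, 3.90% were called higher and 4.31% lower, 8.21% in all. The median log2 fold change of the 10 genes was 0.04, beside 0.01 for all genes tested, and the single values ran from -1.08 to 1.04. With 10 genes, 1 call more or less moves the called share by 10 percentage points, and no test of the list was made. The 10 genes were chosen with earlier results of these data known, so these counts only describe them.

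**Figure D1:**
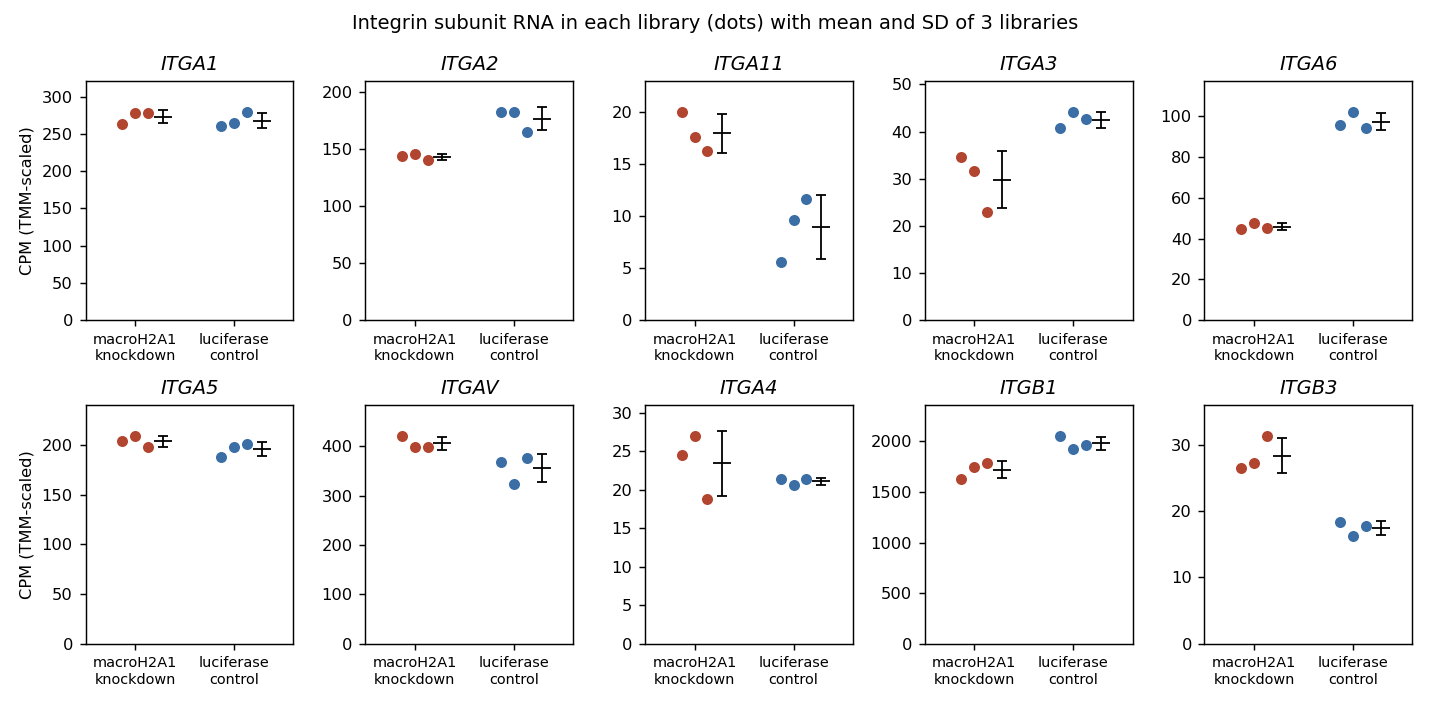
Normalised counts (CPM over TMM-scaled library sizes, vertical axis from 0) of the 10 integrin subunit genes in the 3 macroH2A1 knockdown libraries (red, left) and the 3 luciferase control libraries (blue, right), with the mean and SD of each group beside the dots. The groups are farthest apart, relative to their spread, for ITGA6 (44.5 to 47.8 CPM in the knockdown, 94.4 to 102 CPM in the control), and the values of ITGA1, ITGA5 and ITGA4 overlap.

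Of the laminin-binding chains, ITGA6 fell in the knockdown and ITGA3 did not pass the test. ITGA6 (ENSG00000091409, chromosome 2), the alpha chain of laminin receptors in hemidesmosomes and many stem cells, had 225, 220 and 169 reads in the knockdown libraries and 605, 444 and 357 reads in the control libraries. These counts correspond to 44.5, 47.8 and 45.3 CPM in the knockdown, against 95.7, 102 and 94.4 CPM in the control. No knockdown library came near the lowest control library. The mean was 45.9 ± 1.75 CPM in the knockdown and 97.2 ± 3.81 CPM in the control (SD, n = 3 each), a log2 fold change of -1.08 (SE 0.07, 95% interval -1.25 to -0.92, edgeR adjusted p = 0.000844). The call of ITGA6 held under all 15 alternatives tried, where its log2 fold change ran from -1.11 to -1.05.

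ITGA3 (ENSG00000005884, chromosome 17), the alpha chain of a laminin receptor of epithelia, was measured at 34.6, 31.7 and 23 CPM in the knockdown, against 40.8, 44.1 and 42.6 CPM in the control. The groups did not overlap, but the third knockdown library lay well below the other two. The log2 fold change of -0.51 (SE 0.15) did not pass (edgeR adjusted p = 0.0872). Without knockdown replicate 3 it was -0.35 (adjusted p = 0.105). With DESeq2 the adjusted p was 0.0313.

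ITGA7, the third laminin-binding alpha chain and the one best known from muscle, was not among the 10 genes but was expressed enough to test. It had 2.77, 2.61 and 1.61 CPM in the knockdown, against 5.69, 8 and 8.99 CPM in the control. Its log2 fold change was -1.64 (SE 0.30, edgeR adjusted p = 0.021), so it fell as well, with 32 reads in all in the knockdown and 105 in the control. The adjusted p was 0.0574 to 0.0684 when any knockdown library or control replicate 3 was left out, and 0.0775 without control replicate 2. The planned laminin-binding class held ITGA3 and ITGA6 only, and ITGA7, itself called lower, was added to it here, so the counts that follow are a description. Of the 3 laminin-binding alpha genes, 2 were called lower, where 4.31% of all genes tested were. All 3 had groups that did not overlap, as did 15.9% of all genes tested in that direction.

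Among the collagen-binding chains, 1 fell, 1 had a higher level that did not pass and 1 was level between the groups. ITGA2 (ENSG00000164171, chromosome 5), the alpha chain of the receptor for collagen I on platelets and epithelia, had 144, 145 and 140 CPM in the knockdown, against 182, 182 and 165 CPM in the control. The groups were apart, with the highest knockdown library under the lowest control library. The log2 fold change was -0.30 (SE 0.07, 95% interval -0.46 to -0.13), at 81.3% of the control level, and the adjusted p of 0.0485 (edgeR) lay just under the threshold. Leaving out any 1 of the 6 libraries gave adjusted p values of 0.0659 to 0.159, and the call held under 3 of 15 alternatives.

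ITGA11 (ENSG00000137809, chromosome 15), the alpha chain of a receptor for fibrillar collagen that is largely confined to fibroblasts, had the fewest reads of the 10 genes: 101, 81 and 61 in the knockdown libraries and 35, 42 and 44 in the control libraries. Scaled to library size these were 20, 17.6 and 16.3 CPM in the knockdown, against 5.54, 9.6 and 11.6 CPM in the control. Every knockdown library was above every control library, but the control libraries differed among themselves by more than the knockdown libraries did. The estimate was 2.06-fold higher (log2 1.04, SE 0.26, 95% interval 0.42 to 1.67) and did not pass in the fit of all genes (edgeR adjusted p = 0.0602). It passed with DESeq2 (adjusted p = 0.00318) and limma-voom (adjusted p = 0.0385), and over the 15 alternatives the adjusted p ran from 0.00052 to 0.151. Without control replicate 1, the lowest of the 6 libraries, the log2 fold change was 0.77 (adjusted p = 0.0746).

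ITGA1 (ENSG00000213949, chromosome 5), which prefers collagen IV and is common on mesenchymal cells, had 263, 278 and 278 CPM in the knockdown, against 260, 264 and 279 CPM in the control. These ranges overlap, and the 95% interval of the log2 fold change, -0.14 to 0.19, is the range of differences these libraries allow (edgeR adjusted p = 0.853). In the annotation, 2.56% of the exon bases of ITGA1 are shared with PELO, a gene on the same strand, and reads there could have been set aside as ambiguous.

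The RGD-binding and alpha4 chains did not pass the test. ITGAV (ENSG00000138448, chromosome 2) had 421, 399 and 398 CPM in the knockdown, against 368, 323 and 377 CPM in the control. The groups did not overlap. The highest control library (377 CPM) lay closer to the lowest knockdown library (398 CPM) than to control replicate 2 (323 CPM). Its log2 fold change was 0.19 (SE 0.09, edgeR adjusted p = 0.236). ITGA5 (ENSG00000161638, chromosome 12) had 204, 209 and 198 CPM in the knockdown, against 188, 198 and 201 CPM in the control, and a log2 fold change of 0.06 with a 95% interval of -0.10 to 0.22 (edgeR adjusted p = 0.64). ITGA4 (ENSG00000115232, chromosome 2) had 24.5, 27 and 18.8 CPM in the knockdown, against 21.4, 20.6 and 21.4 CPM in the control. Knockdown replicate 3 held both the lowest ITGA4 and the lowest ITGA3 value of the 6 libraries, and the ITGA4 log2 fold change was 0.15 (95% interval -0.18 to 0.49, edgeR adjusted p = 0.564).

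Of the beta chains, the rarer one rose. ITGB3 (ENSG00000259207, chromosome 17), best known from platelets, osteoclasts and angiogenic endothelium, had 26.5, 27.2 and 31.3 CPM in the knockdown, against 18.4, 16.2 and 17.7 CPM in the control. All knockdown libraries were above all control libraries. The mean was 28.3 ± 2.62 CPM in the knockdown and 17.4 ± 1.09 CPM in the control (SD, n = 3 each), a log2 fold change of 0.70 (SE 0.10, 95% interval 0.45 to 0.94, edgeR adjusted p = 0.0119). Without control replicate 2 the log2 fold change was 0.65 and the adjusted p 0.0545, and ITGB3 was called under the other 14 alternatives. In the annotation, 51.6% of the exon bases of ITGB3 overlap another gene annotated on the same strand, which had no reads in any library, so reads there may have been counted as ambiguous and the level of ITGB3 is uncertain.

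ITGB1 (ENSG00000150093, chromosome 10), the common partner of most of the alpha chains here, was the most abundant integrin RNA, with 1624, 1748 and 1786 CPM in the knockdown, against 2053, 1920 and 1965 CPM in the control. Each knockdown library was below each control library. The log2 fold change was -0.20 (SE 0.09, 95% interval -0.41 to 0.00) and did not pass (edgeR adjusted p = 0.209). Its adjusted p was 0.0557 with limma-voom and 0.443 with DESeq2, and 0.00173 in edgeR restricted to the genes that the authors' deposited table lists.

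**Figure D2:**
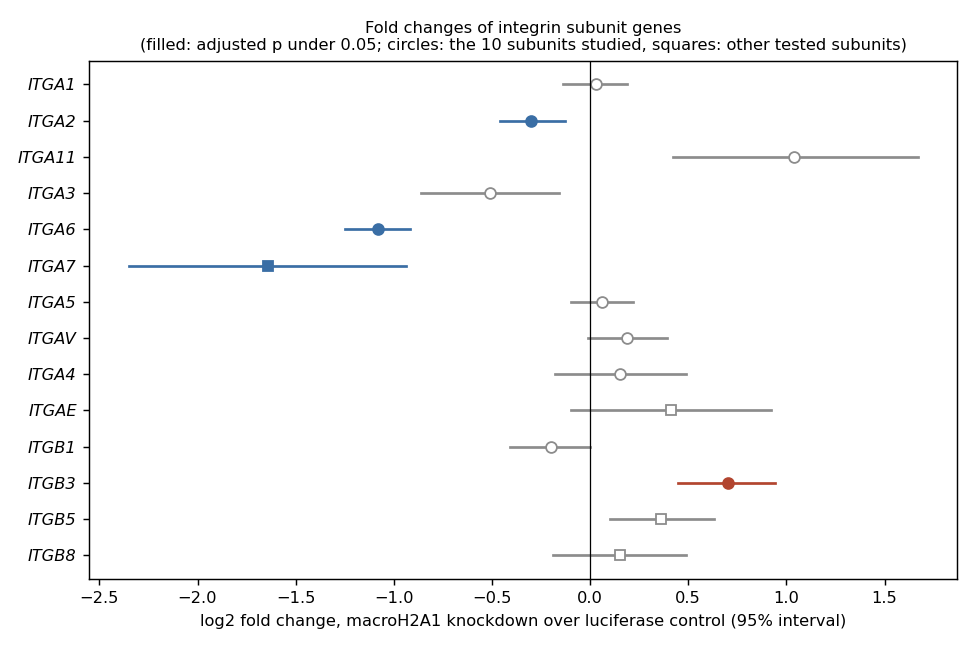
Log2 fold changes (macroH2A1 knockdown over luciferase control, horizontal axis) with 95% intervals for the 10 integrin subunit genes (circles) and the 4 other subunits that could be tested (squares), ordered by ligand class. Filled red is higher and filled blue lower at an edgeR adjusted p under 0.05, and open grey did not pass. ITGA3, ITGA6 and ITGA7 all lie below 0, at -0.51, -1.08 and -1.64.

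Across the 10 genes the groups of CPM values did not overlap for 7, of which 3 were higher and 4 lower in the knockdown. Such a separation was common, since 30.4% of all genes tested showed it (14.5% higher and 15.9% lower). In the authors' deposited table, 3 of the 10 genes were higher and 4 lower at an adjusted p under 0.05, where 5.46% of its 11638 genes were higher and 6.57% lower, 12.0% in all. They are the 7 genes whose groups did not overlap. The authors' deposited table gives ITGA6 a log2 ratio of -1.07 (adjusted p = 9.83e-22), ITGA11 1.02 (adjusted p = 2.84e-05), ITGB3 0.71 (adjusted p = 0.000969), ITGB1 -0.19 (adjusted p = 0.00178), ITGA2 -0.29 (adjusted p = 0.00286), ITGA3 -0.50 (adjusted p = 0.0156) and ITGAV 0.20 (adjusted p = 0.0383). Its log2 ratios and those of the edgeR fit differ little, and the 2 sources differ in the p-values they attach to them.

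Levels can be set beside each other between genes once divided by length, in RPKM (CPM per kilobase, here of all annotated exons of a gene), and part of the order depends on the length used. In the knockdown the order from highest to lowest was ITGB1 (286 ± 14.1), ITGAV (49.4 ± 1.59), ITGA5 (26.9 ± 0.724), ITGA2 (18.1 ± 0.34), ITGA1 (14.7 ± 0.484), ITGA6 (7.02 ± 0.268), ITGB3 (6.45 ± 0.596), ITGA3 (3.04 ± 0.615), ITGA4 (2.96 ± 0.534) and ITGA11 (1.65 ± 0.17 RPKM; SD, n = 3 each). In the control ITGB1 (329 ± 11.3), ITGAV (43.4 ± 3.54), ITGA5 (25.8 ± 0.938) and ITGA2 (22.3 ± 1.22) led in the same order, followed by ITGA6 (14.9 ± 0.582), ITGA1 (14.4 ± 0.526), ITGA3 (4.34 ± 0.169), ITGB3 (3.97 ± 0.247), ITGA4 (2.67 ± 0.0589) and ITGA11 (0.821 ± 0.286 RPKM; SD, n = 3 each). Neighbours whose libraries overlapped, and which therefore cannot be ranked, were ITGA6 with ITGB3 and ITGA3 with ITGA4 in the knockdown, and ITGA6 with ITGA1 and ITGA3 with ITGB3 in the control. With the length of the longest transcript, added after the data were seen, ITGB1, ITGAV and ITGA5 led and ITGA11 came last in both groups as before, but ITGA1 lay above ITGA2, at 25.4 ± 0.836 against 18.2 ± 0.341 RPKM in the knockdown and 24.9 ± 0.909 against 22.4 ± 1.23 RPKM in the control (SD, n = 3 each). By that length ITGA6 was at 8.16 ± 0.311 RPKM in the knockdown, above ITGB3 at 7.09 ± 0.656 RPKM with no overlap, and at 17.3 ± 0.677 RPKM in the control, below ITGA1 with no overlap (SD, n = 3 each). In the control, ITGA4 lay above ITGB3 by that length, at 5.04 ± 0.111 against 4.36 ± 0.272 RPKM (SD, n = 3 each) with no overlap. By all exons their order was the reverse, also with no overlap. The place of ITGA6 next to ITGB3 or ITGA1, and that of ITGB3 next to ITGA4 in the control, therefore rest on the choice of length. The level of ITGB3 is uncertain as given above.

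The laminin-binding chains made up less of the alpha chain RNA in each knockdown library than in each control library. Of the summed RPKM of the 8 alpha chains in a library, ITGA6 took 5.41%, 5.85% and 5.75% in the knockdown, against 11.4%, 12.3% and 11% in the control. ITGAV took 40.7%, 38.8% and 40.2% in the knockdown, against 34.9%, 31.2% and 35.1% in the control. By ligand class, laminin-binding chains made up 8.12% ± 0.377 in the knockdown and 15% ± 0.823 in the control, RGD-binding chains 61.6% ± 0.648 in the knockdown and 53.8% ± 1.78 in the control, and collagen-binding chains 27.8% ± 0.603 in the knockdown and 29.2% ± 0.987 in the control (SD, n = 3 each). These shares do not depend on library scaling. In an exact permutation test over the 6 libraries (two-sided), the laminin-binding and RGD-binding shares each gave p = 0.1, the smallest that 3 against 3 allows, and 0.138 after Benjamini-Hochberg adjustment over 11 shares. The collagen-binding share gave an exact p of 0.2.

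**Figure D3:**
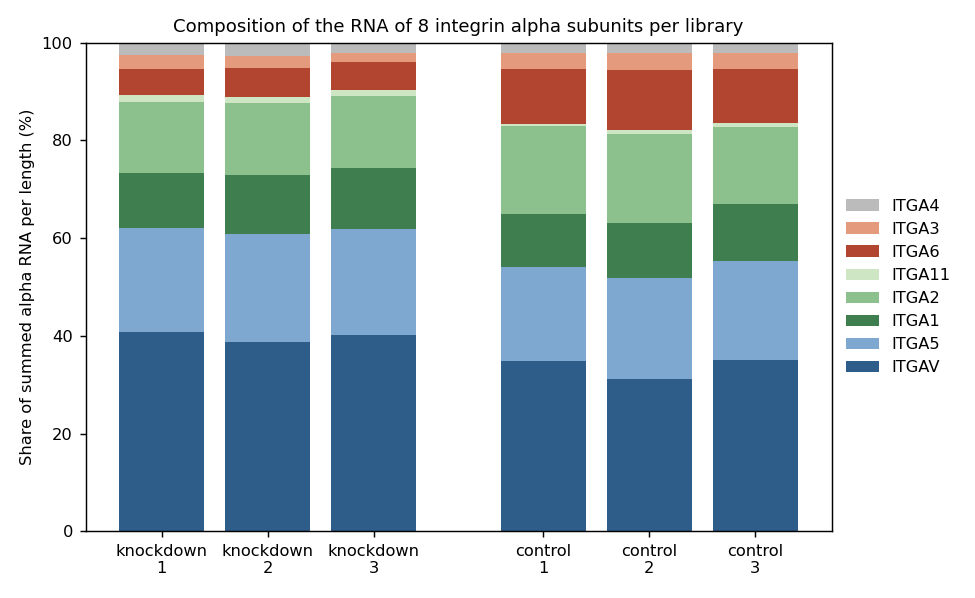
Share (%, vertical axis) of each alpha chain in the summed RPKM of the 8 alpha chains, 1 bar per library, with the 3 macroH2A1 knockdown libraries on the left and the 3 luciferase control libraries on the right. Blue shades are RGD-binding, green shades collagen-binding and red shades laminin-binding chains, and ITGA4 is grey. The ITGA6 band spans 5.41% to 5.85% in the knockdown and 11% to 12.3% in the control.

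The summed level of all 8 alpha chains was close between the groups, at 124 ± 2.94 RPKM in the knockdown and 129 ± 2.4 RPKM in the control (SD, n = 3 each; exact permutation p = 0.1). Laminin-binding chains summed to 10.1 ± 0.686 RPKM in the knockdown and 19.2 ± 0.717 RPKM in the control, and the 2 beta chains to 292 ± 14.6 RPKM in the knockdown and 333 ± 11.5 RPKM in the control (SD, n = 3 each; exact permutation p = 0.1 for each). With the length of the longest transcript in place of all exons, a choice made after the data were seen, the laminin-binding sum was 13.6 ± 1.16 RPKM in the knockdown and 25.1 ± 0.925 RPKM in the control (SD, n = 3 each).

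For context on the genes themselves, the windows around the start sites are shown for the called genes that the promoter table holds, ITGA6 and ITGA2, and for ITGA11, which had the highest positive fold change of the 10. Each runs from 250 bases before to 50 after a start site (RefSeq, GRCh38.p14, 5′ to 3′ on the gene's strand), with matches to the GC box GGGCGG on either strand in capitals.
ITGA6 (chr2:172427086-172427385, + strand, first of 2 listed windows): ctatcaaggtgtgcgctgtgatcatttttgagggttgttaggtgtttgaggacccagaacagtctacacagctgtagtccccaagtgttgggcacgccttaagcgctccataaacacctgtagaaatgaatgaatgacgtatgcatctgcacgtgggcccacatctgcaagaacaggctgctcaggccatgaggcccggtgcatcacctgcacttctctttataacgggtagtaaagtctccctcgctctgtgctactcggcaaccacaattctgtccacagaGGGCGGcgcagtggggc
ITGA2 (chr5:52989102-52989401, + strand): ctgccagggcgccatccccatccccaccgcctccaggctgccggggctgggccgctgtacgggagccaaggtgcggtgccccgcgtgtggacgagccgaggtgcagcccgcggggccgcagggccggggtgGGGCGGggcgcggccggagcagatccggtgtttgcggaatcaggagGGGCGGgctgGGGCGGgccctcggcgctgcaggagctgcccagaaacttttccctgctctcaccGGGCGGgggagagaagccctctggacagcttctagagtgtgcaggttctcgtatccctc
ITGA11 (chr15:68432114-68432413, - strand): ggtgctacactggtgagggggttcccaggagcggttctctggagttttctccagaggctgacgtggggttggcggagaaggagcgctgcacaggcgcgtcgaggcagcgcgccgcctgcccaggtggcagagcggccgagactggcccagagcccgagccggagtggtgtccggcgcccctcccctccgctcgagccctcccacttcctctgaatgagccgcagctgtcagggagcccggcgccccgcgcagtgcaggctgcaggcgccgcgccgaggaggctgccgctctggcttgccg
The ITGA2 window holds 4 GC boxes, the ITGA6 window 1 and the ITGA11 window none. Of the 8 of 10 genes with an entry, 4 windows held at least 1 GC box, as did 45% of all 35116 windows of the table. GC content was 53% in the ITGA6 window, 72.7% in that of ITGA2 and 72% in that of ITGA11, where the median of all windows was 58.7%. The AP-1 motif TGANTCA, found in 7.71% of all windows, was in none of these 3, and TATAAA, found in 11.5%, was in that of ITGA6 only, as its reverse complement TTTATA; all motifs were sought on both strands. These matches describe the windows and say nothing of binding in these cells.

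Most of the remaining integrin subunits had few or no reads. Of 16 other subunits, 4 passed the filter on low counts, and of these ITGA7 fell and none rose. ITGB5, a beta partner of ITGAV, had 65.9, 60.9 and 57.1 CPM in the knockdown, against 41.1, 50.1 and 52.1 CPM in the control, a log2 fold change of 0.36 that did not pass (SE 0.11, edgeR adjusted p = 0.1). ITGB8, another partner of ITGAV, and ITGAE had log2 fold changes of 0.15 and 0.41 (edgeR adjusted p = 0.586 and 0.299). ITGAD, ITGAL and ITGB7, subunits of leukocyte integrins, had no read in any library, which allows up to 0.475 to 0.804 CPM per library.

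ITGA8, an RGD-binding chain of mesenchymal cells that pairs with ITGB1, was nearly absent from the control and detected in the knockdown. It had 17, 11 and 5 reads in the knockdown libraries, against 0, 1 and 0 in the control libraries. The ratio of the summed reads, scaled to library size, was 35.7, knockdown over control. Its exact 95% counting interval was 5.97 to 1452, which covers counting error only. ITGA8 was too low for the filter of the main test. When all genes with at least 20 reads were tested, edgeR gave an adjusted p of 0.0267. ITGA8 passed this filter only through its knockdown reads, 33 in all beside 1 in the control, so this value is no separate support. In the authors' deposited table the adjusted p was 9.59e-05. That table lists ITGB6, with 19 reads in the knockdown and 13 in the control. It leaves out ITGA9 and ITGA10, which had fewer reads in all, so the same limit holds there. ITGA9 had 1, 3 and 7 reads in the knockdown and 1, 0 and 0 in the control, and its edgeR adjusted p was 0.223 when every gene with a read was tested.

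Many matrix ligands of integrins rose. Of 42 ligand genes, 38 were tested, and 24 of these rose, none fell and 14 did not pass, with a median log2 fold change of 0.47 beside 0.01 for all genes. The share called higher was 63.2%, beside 3.90% of all genes tested. The list was chosen with earlier results of these data known, so this share describes the list and is not a test of it. The 4 largest increases were those of LAMA3, TGFBI, TNC and COL3A1. LAMA3, a laminin chain whose trimer is a ligand of ITGA3 and ITGA6 receptors, had 16.4 ± 1.91 CPM in the knockdown and 5.19 ± 1.62 CPM in the control (SD, n = 3 each; log2 fold change 1.66, SE 0.24, edgeR adjusted p = 0.0101). TNC, tenascin C, reached 1162 ± 72.2 CPM in the knockdown, against 516 ± 36.7 CPM in the control, and TGFBI 1644 ± 122 CPM in the knockdown, against 725 ± 67.7 CPM in the control (SD, n = 3 each; edgeR adjusted p = 0.00132 and 0.00193). COL3A1, the chain of collagen III, was 2.19-fold higher (edgeR adjusted p = 0.00119). Fewer ligands, 8 to 19, were called when 1 library was left out, the fewest without control replicate 2.

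Split by kind after the values were seen, 6 of 9 tested laminin chains and 9 of 10 collagen chains rose and none fell, where 3.90% of all genes tested were called higher. The laminin chains had a median log2 fold change of 0.50, while the laminin-binding alpha chains ITGA3, ITGA6 and ITGA7 had values of -0.51, -1.08 and -1.64. FN1, the fibronectin bound by ITGA5, had a log2 fold change of 0.10 (95% interval -0.22 to 0.41, edgeR adjusted p = 0.712). VCAM1, a ligand of ITGA4, rose 1.65-fold (edgeR adjusted p = 0.00764). The summed fibroblast markers, which share COL1A1, COL1A2 and COL3A1 with the ligand list, were higher in every knockdown library, with 5 of 10 tested markers called, and their part in these values was not tested.

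On the cytoplasmic side of the adhesion, genes were called in both directions. Of 44 adaptors and kinases of focal adhesions, 41 were tested, 3 rose, 3 fell and 35 did not pass, with a median log2 fold change of -0.06. The called share was 14.6%, beside 8.21% of all genes tested. TNS2, a tensin, KANK2, which binds talin at the rim of adhesions, and CSRP1, a LIM protein of actin bundles, rose 1.95-fold, 1.57-fold and 1.34-fold (edgeR adjusted p = 0.0273, 0.00391 and 0.0228). NEDD9, a docking protein of the focal adhesion kinase, fell to 14.1 ± 2.37 CPM in the knockdown, against 30 ± 1.81 CPM in the control (SD, n = 3 each; log2 fold change -1.09, SE 0.13, edgeR adjusted p = 0.00615). RSU1, a partner of the PINCH and ILK complex, and TES, a LIM protein, had log2 fold changes of -0.44 and -0.43 (edgeR adjusted p = 0.0169 and 0.0195). TLN1, the talin that binds beta tails directly, had a log2 fold change of 0.05 with a 95% interval of -0.12 to 0.22 (edgeR adjusted p = 0.724). Leaving out 1 library gave 2 or 3 calls in place of 6.

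Among 30 membrane proteins that associate with integrins or share their ligands, 29 were tested, 1 rose, 4 fell and 24 did not pass, with a median log2 fold change of 0.05. The called share was 17.2%, beside 8.21% of all genes tested. MRC2, an endocytic collagen receptor, rose 1.52-fold (edgeR adjusted p = 0.0174). CD44, a hyaluronan receptor, was at 707 ± 42.4 CPM in the knockdown and 1054 ± 63.9 CPM in the control (SD, n = 3 each; log2 fold change -0.57, SE 0.09, edgeR adjusted p = 0.0131). SDC4, a syndecan that acts with ITGA5 receptors on fibronectin, CD9, a tetraspanin, and CAV1, the main protein of caveolae, fell with log2 fold changes of -0.54, -0.45 and -0.32 (edgeR adjusted p = 0.00806, 0.0321 and 0.0403). SDC4 kept its call in 15 of 15 alternatives, CD9 in 8 and CAV1 in 5, and 1 to 3 genes of this list were called when 1 library was left out, the fewest without knockdown replicate 3.

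**Figure D4:**
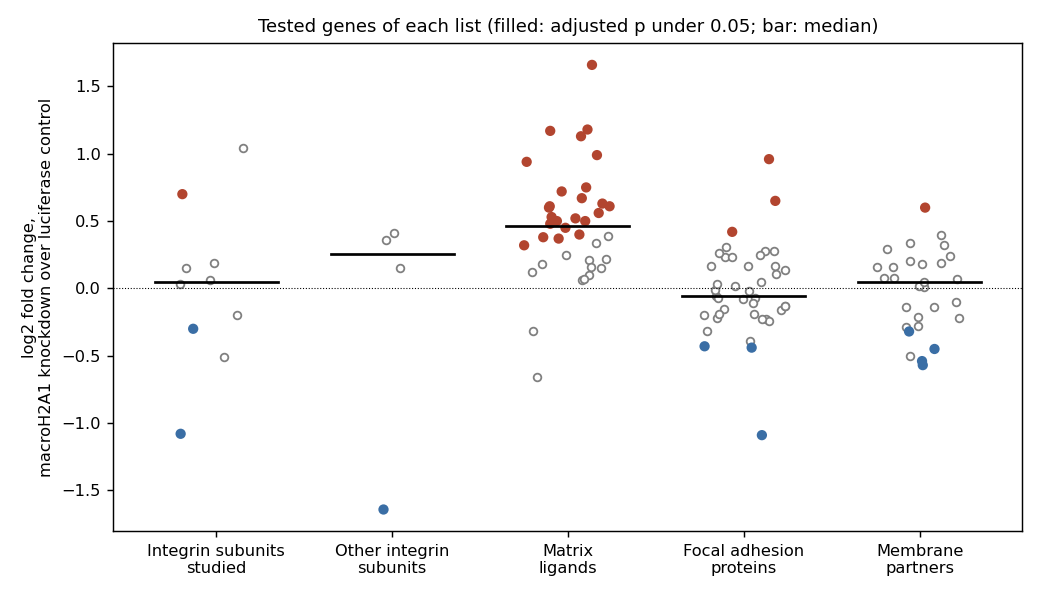
Log2 fold changes (macroH2A1 knockdown over luciferase control, vertical axis) of the tested genes of each list, with red and blue dots for genes higher and lower at an edgeR adjusted p under 0.05, open dots for the rest and a bar at the median. Of the 38 matrix ligands 24 are red and none is blue, while the 10 integrin subunits have 1 red and 2 blue dots around a median of 0.04. The lists were chosen with earlier results of these data known.

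The genes whose profile over the 6 libraries came closest to that of ITGA6 were sought among 7084 protein-coding genes with a mean of at least 10 CPM, by the root mean square difference of log2 CPM centred on the control mean. The closest were DCBLD2, a membrane protein, at 0.0416, MACROH2A1, the targeted gene, at 0.0517, and USP53 at 0.0639, with log2 fold changes of -1.06, -1.11 and -1.12 beside -1.08 for ITGA6. For ITGB1 they were KIF1B at 0.0235, TAX1BP1 at 0.0261 and RPL5 at 0.0294, and none of these 3 passed the test (edgeR adjusted p = 0.1, 0.0919 and 0.11). In a design of 2 groups such closeness mostly restates that the fold changes are alike.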

How the data were processed

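RNA from 6 libraries of IMR90 cells, 3 per group, was depleted of ribosomal RNA and sequenced with strand-marked cDNA, per the labels' protocols. The deposited files hold whole-number counts of reads for each Ensembl identifier. CASAVA 1.7, GSNAP, HTSeq and the build hg19 are named in the submitters' processing notes. For the HTSeq strand option and the annotation, the sources used here give nothing. Count lines without a gene were set aside: 64.4% to 68.8% of reads had no unique alignment, 8.34% to 11.3% fell outside features, 6.85% to 9.63% did not align, 1.51% to 1.85% matched several genes and 0.326% to 0.479% had low alignment quality. The authors' deposited table, made with DESeq 1.10.1 per the same notes, holds per the file headers a mean normalized signal, the ratio of group means, its log2, and p-values before and after adjustment. Its log2 ratios lie within 0.00293 of those computed from the counts, knockdown over control. Its 2 columns of unnamed group means were not used.

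Groups and replicate numbers came from the titles. Replicates differed by more than sampling noise (chi-square per degree of freedom 25.2 to 37.7). Genes were filtered with filterByExpr (minimum count 10), scaled with TMM and tested with edgeR 4.0.16 (glmQLFit, glmQLFTest) in R 4.3.3 with group as the only term, adjusted over all 13445 genes (Benjamini-Hochberg, threshold 0.05). The standard error is the log2 fold change over the square root of F, and 95% intervals use its t distribution. RPKM is CPM over the kilobases of all exons in GENCODE 29, which is on another build, so no coordinates come from it. Symbols matched for 47153 identifiers and for 175 of 175 list entries. Named genes were the 10 subunits, up to 4 called genes with the largest change in each direction of each further list, and the 3 closest profiles to the subunits with the smallest p and the highest CPM. FN1, VCAM1, TLN1, the fibroblast markers and the subunits that were not called were named after their values were seen. The members and lists were chosen with earlier results of these data known. Alternatives were 3 scalings, 2 filters, DESeq2 1.42.0, limma-voom (limma 3.58.1), a replicate block, the genes of the authors' table and leaving out each library. The fit was tested on simulated counts of 13192 genes, comparing knockdown with control: of the changed genes it called 1 of 76 at a log2 change of 0.5, 16 of 61 at 1 and 47 of 57 at 2, with 5 false among 69 calls. Far fewer genes were changed there than the 1104 called in the real data, which makes the adjusted threshold stricter. These rates therefore do not give the power of the real comparison.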

Additional observations from a re-analysis of the deposited data

How the results depend on the processing

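The sign of the log2 fold change of the 10 integrin genes and of the 16 further genes named by rule was the same in every alternative run. The number of genes called over the whole table was 416 with the replicate block and 2042 when only genes of the authors' table were tested, against 1104, and 427 to 564 without 1 library. Integrin genes called higher, 1 in the main test, numbered 2 with genes of at least 1 count, 2 with DESeq2, 2 with limma-voom, 3 with the genes of the authors' table, and 0 to 1 without 1 library. Integrin genes called lower, 2 in the main test, numbered 3 with DESeq2 and 4 with the genes of the authors' table. They numbered 1 with DESeq2 size factors in edgeR, 1 with upper quartile scaling and 1 with library totals. The number was also 1 with either other filter, 1 with the replicate block and 1 without any 1 library. Other integrin subunits called, 1 in the main test, were 2 with each other filter, 2 with the authors' genes, 0 with the block and 0 to 1 without 1 library. Matrix ligands called were 10 with the block and 8 to 19 without 1 library, against 24. Focal adhesion genes called were 2 with the block, 10 with the authors' genes and 2 to 3 without 1 library, against 6. Membrane partners called were 2 with the block, 9 with the authors' genes and 1 to 3 without 1 library, against 5. Fits without a library or with a block have fewer degrees of freedom, and otherwise the cause was not tested. Deviations from the group mean correlated at -0.0294, -0.043 and -0.231 for libraries of the same number, and at -0.165 to 0.219 for libraries of different number. With 3 libraries per group these values cannot decide whether the numbers pair the libraries. All reads listed, knockdown and control, were 44546003 and 46821294 for number 1, 33193394 and 32204507 for number 2, and 28350044 and 28537921 for number 3. Whether same-numbered libraries were handled together was not tested. With plain reads in place of reads per length, the difference in the ITGA6 share, knockdown minus control, was -4.33 percentage points instead of -5.91. Depth limits ITGA8, ITGA9 and ITGA11, and most single-library CPM values under about 0.804 rest on 3 reads or fewer.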

Other observations

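Ratios of 2 integrin RNAs within a library do not depend on library scaling. ITGB3 had 0.0163, 0.0156 and 0.0175 reads per read of ITGB1 in the knockdown, against 0.00894, 0.00846 and 0.00901 in the control, and the groups did not overlap. ITGA11 had 0.117 to 0.138 reads per read of ITGA2 in the knockdown and 0.0305 to 0.0705 in the control, and ITGA6 had 1.29 to 1.97 reads per read of ITGA3 in the knockdown and 2.22 to 2.34 in the control. Each of these 3 ratios gave p = 0.1 in a two-sided exact permutation test, the smallest possible with 3 libraries against 3, and 0.125 after Benjamini-Hochberg adjustment over the 5 ratios computed.

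ITGB1 RNA was above the sum of its alpha partners in both groups. Per length, it had 3.62 to 4.13 times the RNA of the 7 alpha chains other than ITGAV in the knockdown, and 3.68 to 4.08 times in the control (exact permutation p = 0.9). With ITGAV included the ratio was 2.15 to 2.47 in the knockdown and 2.5 to 2.65 in the control (exact permutation p = 0.1).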
